A study of Mus musculus with 94 samples.

Results

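The 5 genes of the plasma membrane followed here, *Cav1*, *Cav2*, *Cd93*, *Tspan7* and *Tmem88*, were measured in single PV-ADSCs (perivascular adipose tissue-derived mesenchymal stem cells). They are 5 of the 16069 genes in the table of primary cells, and each was found by its symbol. The 5 genes were selected on earlier results of these same cells, because *Cav2*, *Cd93*, *Tspan7* and *Tmem88* had been among the genes most restricted to cells with endothelial transcripts. *Cav1* was included without meeting that description. The difference between the 2 kinds of cells described here was thus used to choose all but *Cav1*. For all 5 genes it is given as a description without a test.

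Adipose tissue around the aorta of c57/bl mice aged 8 weeks was digested with collagenase I, and cells of the gate CD144-/CD45-/CD29+/Sca1+ were sorted and made into 1 full-length SMARTseq v4 library per cell. The gate sets limits on the cells as a model: CD144 is the protein of *Cdh5*, the cadherin of endothelial junctions, so cells with that protein on their surface were to be left out. The series describes 94 cells of 1 condition, of which 85 were in the table and 9 were not analysed here. The paper states that it kept 85 of the 94 cells by a minimum number of aligned reads. No animal is named for any cell, so the cells count as a single sample and were compared without p values.

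Caveolae are flask-shaped pits of the plasma membrane that are built from caveolins and stabilised by a coat of cavins. They are dense in the endothelium of capillaries and in adipocytes. Caveolin-1 is required to form them, and caveolin-2 enters them as a partner of caveolin-1. The other 3 genes encode CD93, a C-type lectin-like receptor of endothelial cells that binds the matrix protein multimerin-2, TSPAN7, a tetraspanin that organises other membrane proteins, and TMEM88, a small membrane protein that binds Dishevelled and dampens Wnt signalling.

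*Cav2* and *Cav1* lie next to each other on the same strand of chromosome 6, with 25150 bases between the start of *Cav2* and the first of 2 listed starts of *Cav1*. The 250 bases before the start are shown for these neighbours and for *Tspan7*, since the genes were detected in the same kind of cell. They are RefSeq sequences of the build GRCm38.p6, which is not the build mm9 to which the reads were aligned, and no value was read at these positions. Promoter windows were found for 3 of the 5 genes (*Cav1*, *Cav2* and *Tspan7*). Capitals mark matches on either strand to any of 4 short motifs. The motif of ETS transcription factors, which act in endothelial cells, was searched as the core CCGGAA. For SOX factors the letters searched were AACAAT. For KLF factors, some of which respond to blood flow, a run of CACCC was used. The TATA box of core promoters was searched as TATAAA.

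Cav2, chr6:17280935-17281184, plus strand: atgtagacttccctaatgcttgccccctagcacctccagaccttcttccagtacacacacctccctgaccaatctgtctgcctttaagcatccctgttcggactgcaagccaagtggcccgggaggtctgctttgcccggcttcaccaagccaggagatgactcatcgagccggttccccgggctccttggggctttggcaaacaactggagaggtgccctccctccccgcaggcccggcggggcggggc

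Cav1, first start, chr6:17306085-17306334, plus strand: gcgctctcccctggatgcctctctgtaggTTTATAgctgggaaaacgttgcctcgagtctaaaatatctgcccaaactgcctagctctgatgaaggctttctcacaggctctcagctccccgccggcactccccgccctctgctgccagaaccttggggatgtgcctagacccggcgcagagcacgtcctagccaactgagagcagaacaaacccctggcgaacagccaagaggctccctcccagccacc

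Tspan7, chrX:10484866-10485115, plus strand: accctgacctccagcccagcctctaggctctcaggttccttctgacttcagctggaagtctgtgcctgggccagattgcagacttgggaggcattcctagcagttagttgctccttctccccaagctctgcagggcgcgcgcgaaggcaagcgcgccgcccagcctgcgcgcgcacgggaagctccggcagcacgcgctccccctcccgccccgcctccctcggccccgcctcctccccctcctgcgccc

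The single match in the printed bases was to TATAAA, on the minus strand before the first start of *Cav1*, where it begins 221 bases from the start. In the 4 whole windows of these 3 genes, which reach 50 bases past the start, CCGGAA and AACAAT were not found, and CACCC was found once, after the second start of *Cav1*. No matches overlapped. Over 32851 promoter windows of the same 300 bases, 14.9% held CCGGAA, 10.7% held AACAAT, 57.5% held CACCC and 13.6% held TATAAA. The GC content of the printed bases was 62% for *Cav2*, 59.6% for *Cav1* and 69.2% for *Tspan7*, against a median of 52.4% over all promoters. These are descriptions of the letters in these windows.

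The cells were parted by *Dcn*, which encodes the matrix proteoglycan decorin of fibroblast-like cells. Cells with a deposited value of at least 1000 are called stromal (58 cells) and the rest other cells (27 cells). *Dcn* ranged from 5.17 to 269 in the other cells (median 21.2) and from 6521 to 365531 in the stromal cells (median 93093). Just under the threshold lay cells S58, S48 and S20, with values of 88.2, 239 and 269. Just above it lay cells S50, S61 and S68, with values of 6521, 11185 and 23960.

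Cell S50 stood apart from the stromal cells. The authors' values are whole reads multiplied by factors that differ between groups of genes and between cells. Dividing by the factor gave recovered reads, 111 reads of *Dcn* in cell S20, 248 in S48 and 27349 in S61, but 69 in S50, whose factor of 94.5 was the largest of all. S50 also had the fewest recovered reads of any cell, 1146945, and 850 genes above 0, and none of 7 stromal markers reached 100 reads in it. Its deposited values in contrast had the highest sum of any cell, 6109117, against a median of 2872760. Results that rest on this cell are therefore given with and without it.

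**Figure D1:**
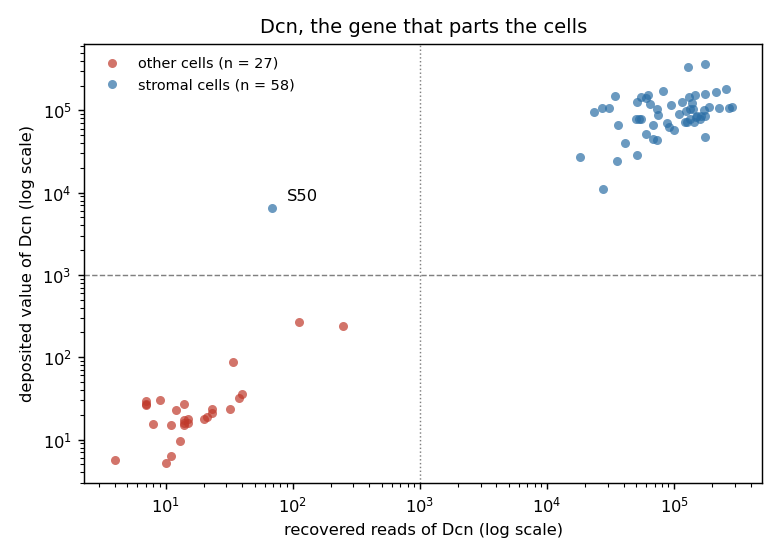
Deposited value of *Dcn* (vertical, log scale) against recovered reads of *Dcn* (horizontal, log scale) in each of the 85 cells, with dashed and dotted lines at 1000. The 27 other cells hold 4 to 248 reads, and cell S50 lies above 1000 by its value of 6521 but holds 69 reads.

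Endothelial transcripts were abundant in the other cells despite the gate. The summed reads of 15 endothelial markers had a median of 24372 in the other cells (range, 0 to 43725) and of 11 in the stromal cells (range, 0 to 16268). At least 3 of the 15 markers held 100 or more reads in 24 of 27 other cells and in 1 of 58 stromal cells, cell S34. *Cdh5* itself was above 0 in 23 other cells, whereas *Erg*, an endothelial transcription factor, was above 0 in 2. The 7 stromal markers summed to a median of 24 reads in the other cells and 152107 in the stromal cells. The markers of adipocytes, mesothelium, immune cells, Schwann cells and erythroid cells that have a row (1, 5, 1, 1 and 3 genes) were at 0 in all other cells. They were rare in the stromal cells too, where 1, 3, 2, 6 and 3 of 58 cells held at least 1 of them at 100 reads. Among these, 2 stromal cells held at least 3 mesothelial markers at that level. Of 5 mural markers with a row, *Rgs5*, a pericyte gene, was at 100 or more reads in 3 other cells and 0 stromal cells, whereas the other 4 were at 0 in all other cells and above 0 in some stromal cells (*Abcc9* in 10). Of the lymphatic markers, *Flt4* was at 100 reads in 2 other cells, and *Pdpn* was above 0 in 18 stromal cells and no other cell. Recovered reads per cell had a median of 2714449 in the other cells (range, 1727402 to 3655526) and 2963854 in the stromal cells (range, 1146945 to 4776510). The other cells had fewer genes above 0, with a median of 1416 against 2813.

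*Cav1*, the main caveolin, was the most widely detected of the 5 genes. It was above 0 in 22 of 27 other cells (81.5%, exact Clopper-Pearson 95% interval 61.9% to 93.7%) and in 22 of 58 stromal cells (37.9%, interval 25.5% to 51.6%). All intervals cover counting error only. The same number of cells in each group hid unlike amounts. In the other cells, *Cav1* ranged from 0 to 25141 reads with a median of 3498, and 20 cells held between 773 and 25141 reads. In the stromal cells, 36 held no read, 13 held fewer than 10, 3 held between 10 and 78, and 6 held between 2226 and 19676. The high stromal cells thus overlapped the other cells in level, while most detections of *Cav1* among stromal cells were of a few reads. At 100 or more reads the shares were 74.1% of the other cells (interval 53.7% to 88.9%) and 10.3% of the stromal cells (interval 3.89% to 21.2%).

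The 6 stromal cells with high *Cav1* were S18 (19676 reads), S93 (9892), S34 (6305), S29 (5407), S59 (3426) and S75 (2226). All 6 held 73060 or more reads of *Dcn*, and 3 to 7 of the 7 stromal markers at 100 reads. S34 also held 6 endothelial markers at 100 reads and was the only cell with both marker classes. The remaining 5 held 0 to 2 endothelial markers at that level. Without S34, *Cav1* was above 0 in 36.8% of the stromal cells.

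*Cav2*, the partner caveolin, was detected more narrowly. It was above 0 in 17 other cells (63%, interval 42.4% to 80.6%) and in 4 stromal cells (6.90%, interval 1.91% to 16.7%). Its reads ranged from 0 to 14304 in the other cells, with a median of 1194. The other cells held either at least 581 reads or at most 4. The highest stromal cell held 117 reads, so the 15 other cells at 100 reads all lay above every stromal cell. The 2 stromal cells with at least 100 reads of *Cav2*, S29 (117 reads) and S34 (106 reads), were both among the 6 cells with high *Cav1*. They held 5407 and 6305 reads of *Cav1*, and per kb of transcript *Cav1* was 46 and 59.2 times as high as *Cav2*.

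*Cd93*, the receptor for multimerin-2, was above 0 in 16 other cells (59.3%, interval 38.8% to 77.6%) and 2 stromal cells (3.45%, interval 0.420% to 11.9%). It ranged from 0 to 9759 reads in the other cells, and its median of 126 reads lay at the lower end of the 14 cells that held 126 to 9759. The distribution was broad, with the highest level in cell S20. Of the 4581 reads in stromal cells, 4577 came from cell S50. When at least 1000 recovered reads of *Dcn* set the groups, S50 joined the other cells and *Cd93* was found at 100 reads in 15 of 28 other cells and 0 of 57 stromal cells, which allows a share of up to 5.26%, taken as 3 cells of the total. The highest stromal cell then held 4 reads.

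*Tspan7*, the tetraspanin, was above 0 in 20 other cells (74.1%, interval 53.7% to 88.9%) and 9 stromal cells (15.5%, interval 7.35% to 27.4%). Reads ranged from 0 to 10267 in the other cells, with a median of 2478, and 17 of them held between 307 and 10267. Of the 9 stromal cells, 7 held between 2 and 6 reads. The other 2 were S29, with 1895 reads, and S92, with 388, both within the range of the other cells. S29 was the only stromal cell with *Cav1*, *Cav2* and *Tspan7* together at 100 reads, and it held 137722 reads of *Dcn* and 1 endothelial marker at 100 reads.

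*Tmem88*, the Dishevelled-binding protein, was above 0 in 18 other cells (66.7%, interval 46% to 83.5%) and 7 stromal cells (12.1%, interval 4.99% to 23.3%). Its median in the other cells was 5 reads. Of these cells, 9 held none and 5 held fewer than 10, while 12 held between 318 and 6277 (44.4% of cells, interval 25.5% to 64.7%). The 5 stromal cells at 100 reads were S39 (909 reads), S66 (305), S81 (216), S78 (188) and S15 (157). These cells held 0 or 1 endothelial markers at 100 reads, and none of them held *Cav1* at 100 reads.

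**Figure D2:**
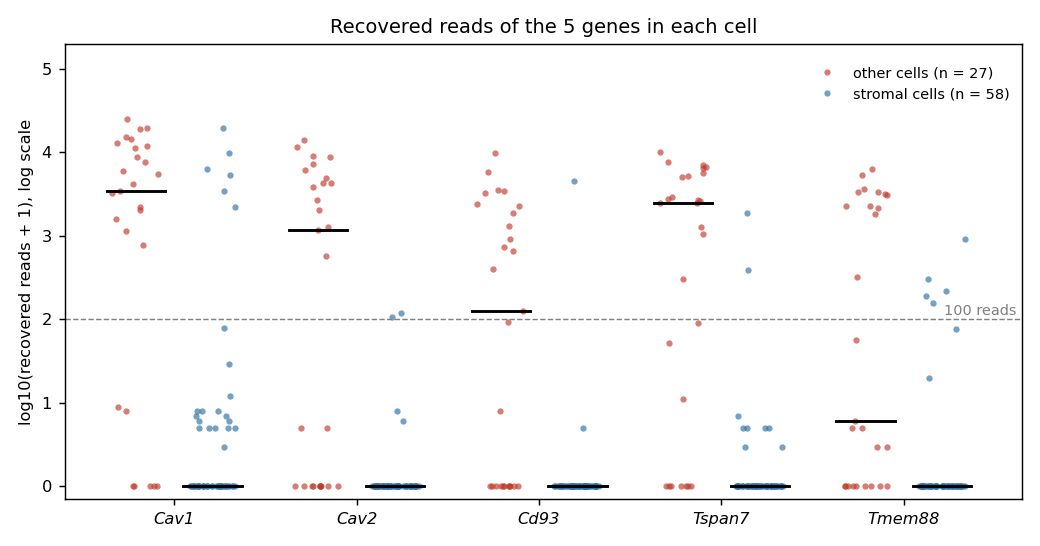
Recovered reads of each gene in each cell as log10(reads + 1), with 27 other and 58 stromal cells as points, medians as black bars and a dashed line at 100 reads. The stromal medians are all 0, and 12 to 20 of the 27 other cells lie at 100 or more reads of each gene.

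Pooled over all reads of a group, each gene made up a larger part of the other cells. As CPM (reads of the gene per 1000000 recovered reads of the group), *Cav1* came to 2469 in the other cells (exact Poisson 95% interval 2457 to 2480) and 276 in the stromal cells (interval 273 to 278). *Cav2* came to 1151 (interval 1144 to 1159) and 1.38 (interval 1.21 to 1.56). *Tspan7* came to 1020 (interval 1013 to 1028) and 13.5 (interval 13 to 14.1). *Cd93* came to 515 in the other cells and 26.8 in the stromal cells, of which cell S50 gave 99.9%, and *Tmem88* came to 522 and 10.9. Reads without molecular identifiers are not independent molecules, and single cells weigh heavily in the stromal sums. The highest stromal cell gave 82.1% of the *Tspan7* reads (S29), 49.8% of *Cav2* (S29), 48.6% of *Tmem88* (S39) and 41.8% of *Cav1* (S18). Without that cell the stromal CPM was 2.47 for *Tspan7*, 0.703 for *Cav2*, 5.72 for *Tmem88*, 164 for *Cav1* and, without S50, 0.0236 for *Cd93*.

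On the scale of the deposited values, the mean of log2(value + 1) was 8.86 ± 5.14 (SD, n = 27) in the other cells and 2.12 ± 4.01 (SD, n = 58) in the stromal cells for *Cav1*, a difference of 6.74. For *Cav2* the means were 7.08 ± 6.10 and 0.32 ± 1.27, a difference of 6.76. For *Tspan7* they were 8.74 ± 5.80 and 0.75 ± 2.04, the largest difference of the 5 at 7.99. The differences of *Cd93* and *Tmem88* were 5.53 and 4.82. The SDs in the other cells were below the mean for all 5 genes, nearest to it for *Cav2*, *Cd93* and *Tmem88*. As log2(CPM + 1) of recovered reads, the differences were 6.79 for *Cav1*, 6.48 for *Tspan7*, 5.74 for *Cav2*, 4.86 for *Cd93* and 4.05 for *Tmem88*. The order of *Tspan7*, *Cav2* and *Cav1* thus depended on the scale.

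All 5 genes passed the filter of a value above 0 in at least 3 cells, and all 5 were at least 1 higher in the other cells, where 2.84% of the 11478 genes tested were. For *Cav2*, *Cd93*, *Tspan7* and *Tmem88* this follows from how they were chosen. *Cav1* was included with them on earlier results of the same cells, without meeting that description. In the opposite direction, 35.6% of genes were at least 1 higher in the stromal cells, and the median difference of all genes was -0.64. By difference of the deposited values, *Tspan7* ranked 5, *Cav2* 7, *Cav1* 9, *Cd93* 18 and *Tmem88* 28 among all genes tested. This ranking mixes genes whose values carry factors, as those of the 5 genes do, with genes that were whole as deposited.

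**Figure D3:**
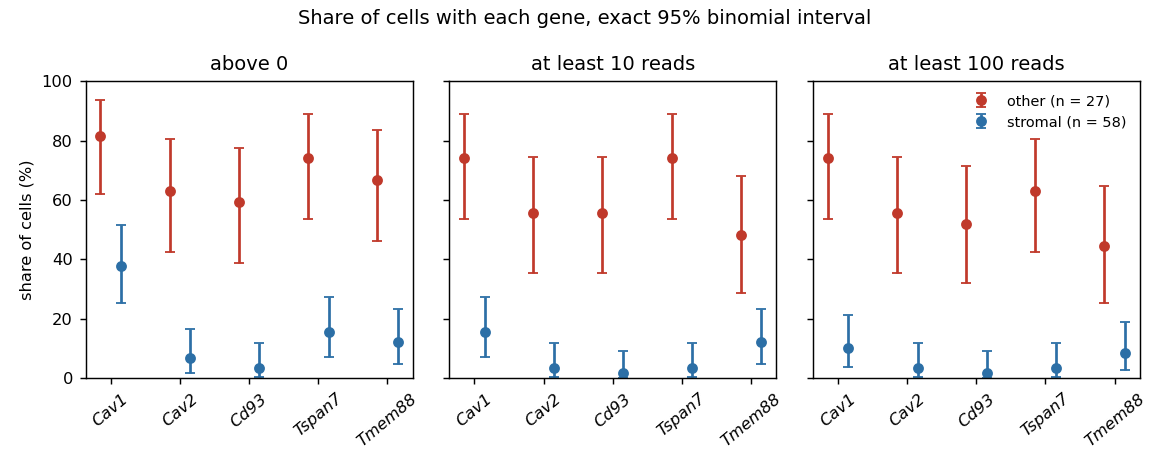
Share of other (n = 27) and stromal (n = 58) cells in percent that held each gene above 0, at 10 or more and at 100 or more recovered reads, with exact 95% binomial intervals. From above 0 to 100 reads, the stromal share of *Cav1* goes from 37.9% to 10.3%, and the other-cell share of *Tmem88* from 66.7% to 44.4%.

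Levels of different genes were compared only per length of the longest annotated transcript, as CPM per kb. These lengths were 2746 bases for *Cav1*, 2733 for *Cav2*, 1582 for *Tmem88*, 7067 for *Tspan7* and 6677 for *Cd93*. Which transcripts the cells held was not measured, and a shorter length would give a higher level, so the order depends on this choice. In the other cells the mean was 951 ± 1036 (SD, n = 27) for *Cav1*, 429 ± 620 for *Cav2*, 323 ± 436 for *Tmem88*, 142 ± 150 for *Tspan7* and 82.4 ± 144 for *Cd93*. Each step in this order was smaller than the SD of the higher gene of the step. By the median the order changed to *Cav1* (501), *Cav2* (164), *Tspan7* (133), *Cd93* (8.62) and *Tmem88* (1.09). *Cav1* and *Cav2* led both orders, and *Tmem88* moved to the last place, with 100 or more reads in 44.4% of the cells.

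The 5 genes did not form a single set within the other cells. At 100 or more reads, 2 of 27 cells held all 5 genes (S62 and S80), 10 held 4, 5 held 3, 6 held 2, 1 held 1 and 3 held none, and 15 different combinations of the genes occurred. From the cells with none of the 5 to those with all 5, the median number of genes above 0 was 377, 1093, 1236.5, 1183, 1596.5 and 1329. Of the 3 cells with none of the 5 genes at 100 reads, S67 and S89 held 0 endothelial markers above 0. They had 285 and 405 genes above 0. The third, S13, held exactly 3 endothelial markers above 0, with 1 at 100 reads. Of the 27 cells, 22 had at least 1000 genes above 0, and among these *Cav1* was above 0 in 90.9%, *Tspan7* in 86.4%, *Tmem88* in 77.3%, *Cav2* in 72.7% and *Cd93* in 63.6%. These shares were higher than over all 27 cells, and the part of the number of genes per cell in them was not tested.

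**Figure D4:**
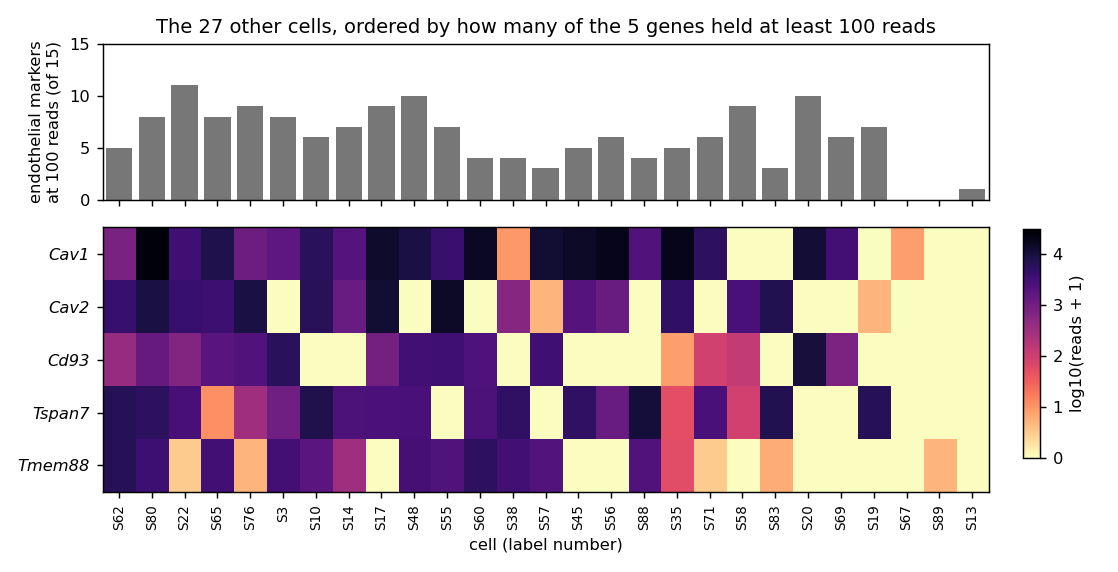
The 27 other cells as columns, ordered by how many of the 5 genes held at least 100 reads, with the number of 15 endothelial markers at 100 reads as bars above and log10(reads + 1) of each gene as colour. S62 and S80 hold all 5 genes, and the 3 cells at the right hold none of them at 100 reads and 0 or 1 endothelial markers.

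Pairs of genes overlapped in part. *Cav1* and *Cav2* were both at 100 reads in 12 other cells, with *Cav1* alone in 8, *Cav2* alone in 3 and neither in 4. Where both were present, the ratio of *Cav1* to *Cav2* per kb of the longest transcript had a median of 1.35 and a range of 0.128 to 16.1. *Cav1* was the higher in 7 of these cells and *Cav2* in 5. *Cav1* and *Cd93* were both in 13 cells, with *Cav1* alone in 7, *Cd93* alone in 1, cell S58, and neither in 6. *Cd93* and *Tspan7* shared 8 cells, while 6 held *Cd93* alone and 9 held *Tspan7* alone. *Tmem88* was with *Cav1* in 11 of its 12 cells and with *Cav2* in 7. *Cav1* was at 100 reads in 20 of the 27 other cells and *Cav2* in 15, and the overlaps were not tested against these shares. Pearson's r of log2(value + 1) over these 27 cells ranged from -0.19 for *Cd93* and *Tspan7* to 0.51 for *Cav1* and *Cd93*, and for *Cav1* and *Cav2* it was 0.18. These 27 points come from 1 set of libraries and differ in genes per cell, and weak correlations of sparse reads are given as description.

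The genes most like each of the 5 over all 85 cells, by Pearson's r of log2(value + 1) among 6127 genes, were largely endothelial. *Cav1* was nearest to *Adgrf5* (0.72), an adhesion receptor, *Flt1* (0.65), a VEGF receptor, and *Cdh5* (0.64). *Cav2* was nearest to *Cldn5* (0.71), a tight junction protein, *Timp4* (0.71), a protease inhibitor, and the water channel *Aqp1* (0.67). *Cd93* was nearest to *Cdh5* (0.73), *Gpihbp1* (0.63), which carries lipoprotein lipase across capillary endothelium, and *Ushbp1* (0.63). *Tspan7* was nearest to *Gpihbp1* (0.75), the fatty acid transporter *Cd36* (0.70) and another tetraspanin, *Tspan13* (0.70). *Tmem88* had weaker neighbours, *Cdh5* (0.57), the chemokine *Cxcl9* (0.54) and the secreted protein *Egfl7* (0.51). These values carry the split between other and stromal cells, and over the 27 other cells alone only *Aqp1*, for *Cav2* (0.65), stayed among the 3 nearest genes. There the nearest genes were *Sptbn1* for *Cav1* (0.71), *Snrpb* for *Cav2* (0.66), *Rps3* for *Cd93* (0.67), *Zfp36* for *Tspan7* (0.74) and *Rps29* for *Tmem88* (0.70). Each of these was also above 0 in 33 to 54 stromal cells.

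Of 15 genes for proteins that build and shape caveolae, 12 had a row and 10 were tested, of which 1 was at least 1 higher in the other cells and 4 at least 1 higher in the stromal cells (2.84% and 35.6% of all genes), with a median difference of -0.22. *Cavin2* was the 1 gene higher in the other cells, at 100 reads in 11 other and 5 stromal cells (difference 3.66). The ATPase *Ehd4* (0.69) and *Ehd2* (0.33), which restrains caveolae at the membrane, came next. *Cavin3* lay farthest in the other direction (-5.56), at 100 reads in 5 other and 45 stromal cells, followed by the dynamin *Dnm1* (-2.58) and by *Ehd1* (-2.09).

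*Cavin1*, the coat protein that caveolae need, was singled out after its values had been seen. It was at 100 reads in 17 of 27 other cells and 39 of 58 stromal cells, a difference of 0.15 in mean log2(value + 1). In the other cells, 15 of the 20 cells with *Cav1* at 100 reads also held *Cavin1*. In the stromal cells, 34 held *Cavin1* at 100 reads without *Cav1*, and 5 held both. All 6 stromal cells with high *Cav1* held *Cavin3* at 100 reads, as did 5 of the 20 other cells with *Cav1* at that level.

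Of the proteins that reside in caveolae or rafts, 12 were tested. At least 1 higher in the other cells were 2, and 6 in the stromal cells (2.84% and 35.6% of all genes), with a median difference of -1.30. *Cd36* differed by 9.14, more than any of the 5 genes, and was at 100 reads in 23 other cells, 19 of which also held *Cav1*. The lipoprotein receptor *Scarb1* differed by 2.07 and the kinase *Yes1* by -0.22. At the other end were the prostacyclin synthase *Ptgis* (-3.60), the kinase *Fyn* (-2.89) and the protein C receptor *Procr* (-2.85). *Plvap*, a diaphragm protein of caveolae, and *Nos3*, the endothelial nitric oxide synthase, were each above 0 in 2 cells, both other cells, and were not tested.

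Of the relatives and partners of CD93, 10 were tested. The list had 1 gene at least 1 higher in the other cells and 5 in the stromal cells (2.84% and 35.6% of all genes), with a median of -0.97. Its ligand *Mmrn2* differed by 2.56, and 5 of the 14 other cells with *Cd93* at 100 reads held it at that level. Over all 27 other cells, 7 held *Mmrn2* at 100 reads, and the overlap was not tested against this share. *Clec14a*, a lectin of the same family, was above 0 in 2 other and 2 stromal cells (0.47), and the ubiquitin ligase *Cbl* differed by 0.01. The differences of the other family members were negative, with *Cd248*, also called endosialin, at -7.95 and *Thbd*, the gene of thrombomodulin, at -5.78, followed by the dystroglycan gene *Dag1* at -3.39.

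Among 30 further tetraspanins, 19 had a row and 18 were tested. Of these, 4 were at least 1 higher in the other cells and 7 in the stromal cells (2.84% and 35.6% of all genes), with a median of -0.70. *Tspan13* stood with *Tspan7*, at 100 reads in 14 other cells and 1 stromal cell (difference 6.73), and 12 of the 17 other cells with *Tspan7* held both. *Tspan15* (1.90) and *Tspan6* (1.5) came next. *Cd63* (-9.40), found in endosomes and exosomes, *Cd9* (-5.19) and *Tspan3* (-4.96) lay farthest toward the stromal cells.

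The last list was the Wnt chain that TMEM88 acts on. Of 15 genes, 13 had a row and 11 were tested, of which none was at least 1 higher in the other cells and 5 were at least 1 higher in the stromal cells (2.84% and 35.6% of all genes), with a median of -0.73. The largest values were those of the transcription factor *Tcf7* (0.14), *Axin1* (-0.51) and *Axin2* (-0.52). The smallest were those of the co-receptor *Lrp6* (-3.06), *Tcf7l2* (-2.03) and the kinase *Gsk3b* (-1.97). *Dvl1*, which encodes a Dishevelled protein, was at 100 reads in 1 of the 12 other cells and 4 of the 5 stromal cells that held *Tmem88* at 100 reads. For *Dvl2* these counts were 1 and 0, and for *Ctnnb1*, the gene of beta-catenin, they were 4 and 1. Over all other and all stromal cells, *Dvl1* was at 100 reads in 1 and 8, *Dvl2* in 2 and 4, and *Ctnnb1* in 9 and 26. Set against the median of -0.64 over all genes, the caveola coat list lay somewhat higher and the other 4 lists lower or close to it, and nothing particular to a list is read from this.

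**Figure D5:**
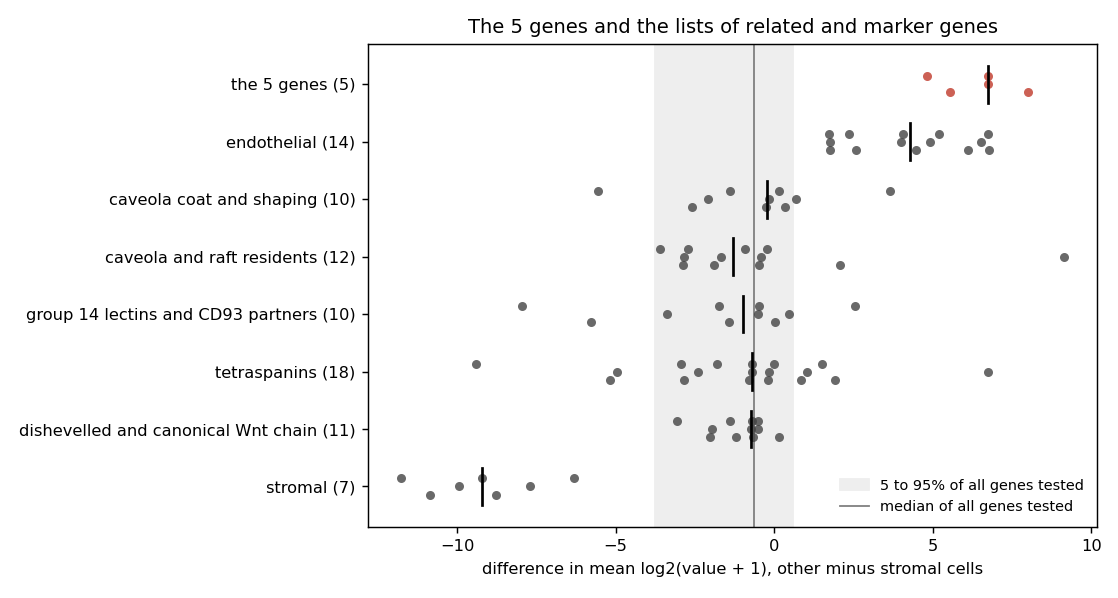
Difference in mean log2(value + 1), other minus stromal cells, of each tested gene in the lists, with list medians as black bars and the number tested in brackets. The grey band holds the 5th to 95th percentile of all genes tested (-3.77 to 0.60) and the grey line their median (-0.64). The 5 genes lie between 4.82 and 7.99.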

How the data were processed

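Single cells sorted from digested adipose tissue around the aorta were sequenced as 1 SMARTseq v4 library each. Per the study's methods and the submitters' processing notes, the authors aligned reads to mm9 with HISAT2 2.0.5, sorted them with SAMtools 1.4, assembled them with StringTie 1.3.3 and normalised them with scater. The unit of the deposited values is a signal of normalised read counts in 1 table of 85 cells. The program that counted reads is not given in the sources used here. No strand setting is stated, so reads of overlapping genes cannot be told apart.

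The members, the gene lists and the comparisons were chosen with earlier results of these data known. Whole reads were recovered by dividing each value by a step, the largest number that divides every value of its gene group in that cell to a whole number (relative tolerance 6e-09 or absolute 1e-06 reads). The table held 13 such groups, of 5404 genes, with steps from 0.0157 to 94.5. The 10665 genes that were whole as deposited were left undivided. Of 200972 values above 0, 21 had no step, all in 1 cell and in none of the 5 genes. With the step of another group, 0.00347% of values were whole. The method was also run on simulated reads of genes above 0 in at least 10 cells. The simulated steps spanned a narrower range, so that run does not cover steps as large as that of cell S50. For 20 of 1105 pairs of a cell and a group, fewer than 10 values set the step, which among the 5 genes touches the 7 reads of *Cav1* in cell S67.

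Cells were grouped by the deposited value of *Dcn* (at least 1000, stromal). Differences are of mean log2(value + 1) over genes above 0 in at least 3 cells. As the cells were 1 sample, no test was run. Shares have Clopper-Pearson and sums Poisson intervals at 95%. Per-length levels used the longest transcript of GENCODE vM21, which is of another build. Genes named were the 5 members, *Dcn*, up to 3 genes with the largest and 3 with the smallest difference in each related list, the 3 genes most like each member, and markers that stand apart. Alternatives were read levels of 10 and 100, thinning to 1146945 reads, other *Dcn* thresholds, cells left out, pseudocounts of 0.1 and 10, CPM of recovered reads, and other gene filters. Depth was 1146945 to 4776510 recovered reads per cell. The genes *Cavin1*, *Cavin2* and *Cavin3* were read from the older symbols Ptrf, Sdpr and Prkcdbp. Markers and list genes without a row were not analysed here. Python 3.11.15, numpy 2.4.6, pandas 2.3.3, scipy 1.17.1 and matplotlib 3.10.9 were used.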

Additional observations from a re-analysis of the deposited data

How the results depend on the processing

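Of 133 values recomputed under an alternative, 122 moved by less than the interval of a share, the spread between cells of a difference, or 1.5 times a count, 11 moved by more, and none changed direction. With 10 or more reads as detection, the share of stromal cells was 15.5% for *Cav1* and 3.45% for *Tspan7*, and with 100 or more it was 10.3% and 3.45%, against 37.9% and 15.5% above 0. With 100 or more reads the share of other cells with *Tmem88* was 44.4%, against 66.7%. Among genes above 0 in at least 10 cells, 60.3% were at least 1 higher in the stromal cells, against 35.6%. The difference ranged over the alternatives from 3.30 to 6.56 for *Tmem88*, 3.71 to 7.39 for *Cd93*, 4.93 to 8.61 for *Cav2*, 5.06 to 8.24 for *Cav1* and 5.97 to 9.95 for *Tspan7*. Without the stromal cell that held most reads of the gene, pooled stromal CPM was 164 for *Cav1*, 0.703 for *Cav2*, 0.0236 for *Cd93*, 2.47 for *Tspan7* and 5.72 for *Tmem88*, against 276, 1.38, 26.8, 13.5 and 10.9. These values and the shares of genes past the difference of 1 under recovered reads of *Dcn* and under CPM were added after seeing the data. Grouping by *Dcn* above 0 gave no value, as every cell held *Dcn*. No paired analysis was possible because the result comes from no test and the cells have 1 condition. Differences between animals could not be measured.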

Other observations

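The cell with the highest level depended on whether deposited values or recovered reads were read. By deposited value *Cav2* was highest in cell S17, at 49516, which is 11676 reads times a factor of 4.24, whereas by reads it was highest in S55, at 14304. *Tspan7* was highest by value also in S17, at 45479, which is 2628 reads times 17.3, and by reads in S88, at 10267. *Tmem88* was highest by value in S60 (8106) and by reads in S62 (6277). For *Cav1* and *Cd93* the same cells, S80 and S20, led on both scales.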
